A study of Mus musculus with 11 samples.

Results

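Chemokines are small secreted proteins that steer migrating cells, and their receptors are G protein-coupled receptors on the cells that respond. The genes examined are the chemokine ligands and receptors of the mouse whose symbols match the family names Ccl, Cxcl, Cx3cl1, Xcl1, Ccr, Cxcr and Ackr with a number, 54 of the 24411 gene symbols counted. They comprise 34 ligands, 16 signalling receptors and 4 atypical receptors, which bind chemokines without G protein signalling and remove or store them. RNA-seq libraries came from 4 groups of mice aged 8 to 10 weeks. Corpus callosum, the large myelinated tract between the hemispheres, was dissected from mice labelled Bmal1-/- (BKO callosum, n = 2) and from wild-type mice (WT callosum, n = 3). Neurospheres, suspended balls of neural stem cells and their progeny from the subventricular zone, were grown for 1 week in medium containing EGF at 20 ng/ml and heparin at 2 ug/ml from mice labelled Bmal1-/- (BKO neurospheres, n = 3) and from wild-type mice (WT neurospheres, n = 3). Whether replicates are separate mice or repeats of 1 preparation is not stated in the labels, so a p-value here compares a difference with the spread between libraries, which could be technical.

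In the brain, CX3CL1 is held on neurons and signals to CX3CR1 on microglia, and CXCL12 guides progenitors and blood cells through CXCR4, while ACKR3 takes CXCL12 up. The CXC ligands with the ELR motif (Cxcl1, Cxcl2, Cxcl3, Cxcl5 and Cxcl15 among these symbols) act on CXCR2, by which neutrophils are recruited. CCL2, CCL3 and related CC-family ligands recruit monocytes and are made by activated microglia and macrophages, often through the transcription factor NF-kB. BMAL1, whose gene is listed as Arntl, pairs with CLOCK on E-box motifs to drive the circadian clock, and in mouse airway epithelium its loss is known to raise Cxcl5. The study compared the genotypes in each RNA source.

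Gene counts summed to 17450270 to 19717848 per library. Chemokine genes took 0.208% and 0.217% of them in BKO callosum, against 0.234% to 0.252% in WT callosum, and 0.0200% to 0.0288% in BKO neurospheres, against 0.0216% to 0.0237% in WT neurospheres. Markers of oligodendrocytes summed to 23060 to 36022 CPM (read counts scaled to library size, with TMM factors over all 11 libraries) in callosum and 1483 to 2514 CPM in neurospheres, while those of neural stem and progenitor cells summed to 302 to 469 CPM in callosum and 3763 to 6744 CPM in neurospheres, each on the side of its label. Callosum libraries also held neuronal markers, at 15795 to 21069 CPM in sum. In bulk RNA, fewer cells of a type and less RNA per cell cannot be told apart. The count of Arntl did not follow the genotype labels, with log2 fold changes of 0.03 ± 0.14 (SE) in callosum and -0.01 ± 0.17 in neurospheres, so the genotype rests on the labels. The clock output gene Dbp was lower in BKO callosum (log2 fold change -2.87 ± 0.13, edgeR adjusted p = 4.91e-05), but in BKO neurospheres its -1.76 ± 0.28 was not called (edgeR adjusted p = 0.218). Nr1d2, which encodes the clock repressor REV-ERB beta, was lower in BKO callosum (-2.80 ± 0.25, edgeR adjusted p = 0.00117) and in BKO neurospheres (-4.11 ± 0.20, edgeR adjusted p = 0.000403), where it was the 1 gene called. Replicate 1 of the BKO neurospheres stood apart before any test. It had 22.6% unmapped reads, against 13.7% to 16.2% in the other 5 neurosphere libraries. The neurosphere log2 fold changes of Cxcl14, Ccl9, Ccl6, Ccl2 and Ccl3 are given with and without it.

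The stretch of 250 bases before the transcription start is shown for 6 ligand genes, from RefSeq on GRCm38.p6, where 39 of the 54 genes had an entry. Cxcl5, the 1 gene of the family whose count differed by genotype, had no entry, so its promoter was not searched. Cxcl1, Cxcl2 and Cxcl3 are shown because they lie next to Cxcl5. Ccl9, Ccl6 and Ccl3 are shown because their counts were high and low in the same neurosphere libraries. Capitals mark the NF-kB motif (GGG, any 2 bases, then TTTCC), the E-box CACGTG and AGGTCA, the core motif of ROR and REV-ERB receptors, each searched on both strands, so that some read as their reverse complement.
Cxcl1 (chr5:90890995-90891244, plus strand): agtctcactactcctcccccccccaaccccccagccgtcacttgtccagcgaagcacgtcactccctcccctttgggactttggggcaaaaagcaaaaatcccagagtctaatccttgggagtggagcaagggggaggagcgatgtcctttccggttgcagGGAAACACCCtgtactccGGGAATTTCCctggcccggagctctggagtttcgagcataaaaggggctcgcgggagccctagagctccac
Cxcl2 (chr5:90903649-90903898, plus strand): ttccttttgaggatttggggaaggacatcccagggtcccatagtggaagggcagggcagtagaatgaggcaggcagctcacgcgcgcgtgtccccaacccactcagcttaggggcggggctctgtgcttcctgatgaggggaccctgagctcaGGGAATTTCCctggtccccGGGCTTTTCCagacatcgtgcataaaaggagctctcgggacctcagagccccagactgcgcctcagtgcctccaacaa
Cxcl3 (chr5:90785851-90786100, plus strand): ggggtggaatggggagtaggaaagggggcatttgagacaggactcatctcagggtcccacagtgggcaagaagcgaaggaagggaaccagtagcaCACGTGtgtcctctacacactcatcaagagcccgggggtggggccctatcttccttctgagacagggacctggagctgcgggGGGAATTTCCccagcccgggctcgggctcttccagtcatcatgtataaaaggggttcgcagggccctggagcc
Ccl9 (chr11:83578637-83578886, minus strand): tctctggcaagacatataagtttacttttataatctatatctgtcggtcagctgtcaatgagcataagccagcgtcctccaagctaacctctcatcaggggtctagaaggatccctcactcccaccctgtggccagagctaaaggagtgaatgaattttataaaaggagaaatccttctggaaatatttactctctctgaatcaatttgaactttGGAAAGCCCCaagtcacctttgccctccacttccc
Ccl6 (chr11:83593088-83593337, minus strand): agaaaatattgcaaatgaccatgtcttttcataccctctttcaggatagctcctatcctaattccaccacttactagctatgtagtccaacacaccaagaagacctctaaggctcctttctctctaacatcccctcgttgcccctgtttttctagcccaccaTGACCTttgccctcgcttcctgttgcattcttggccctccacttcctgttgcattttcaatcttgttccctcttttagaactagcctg
Ccl3 (chr11:83649379-83649628, minus strand): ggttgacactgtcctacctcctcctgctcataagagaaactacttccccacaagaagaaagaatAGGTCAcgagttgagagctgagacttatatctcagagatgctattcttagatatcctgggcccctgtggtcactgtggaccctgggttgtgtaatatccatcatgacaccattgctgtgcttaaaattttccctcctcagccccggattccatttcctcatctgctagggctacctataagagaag
The NF-kB motif lay in 6 of the 41 chemokine gene promoters of the table (14.6%) and in 1.41% of all 32851 promoters over the same length. Those 6 belonged to Cxcl1 and Cxcl2, each with the motif on 2 stretches, and to Cxcl3, Ccl9, Ccl20 and Ccr3. Of the clock motifs, CACGTG, which CLOCK and BMAL1 bind, lay in 1 of 41 (2.44%, that of Cxcl3) and in 6.02% of all promoters, and the D-box TTATGNAA, bound by DBP, in 1 of 41 (2.44%, that of Ccr6) and in 3.07% of all. AGGTCA lay in 12 of 41 (29.3%) and in 14.0% of all promoters. A match describes these letters only, and the difference between the shares was not tested.

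Most of the family was near or below the limit of these libraries. Cxcr1, Cxcr2, Ccl20 and Cxcl15 had no count in any of the 11 libraries, which allows each up to 3 counts per library, or 0.131 to 0.211 CPM (counting error only). A further 17 genes never exceeded 3 counts in a library, 9 reached 4 to 9 counts, and 24 reached at least 10 counts in at least 1 library. In each group 35 (BKO callosum), 37 (WT callosum), 42 (BKO neurospheres) and 43 (WT neurospheres) of the 54 genes had a count. After the filter on low counts, 15 genes could be tested between genotypes in callosum, 15 in neurospheres and 10 in both.

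**Figure D1:**
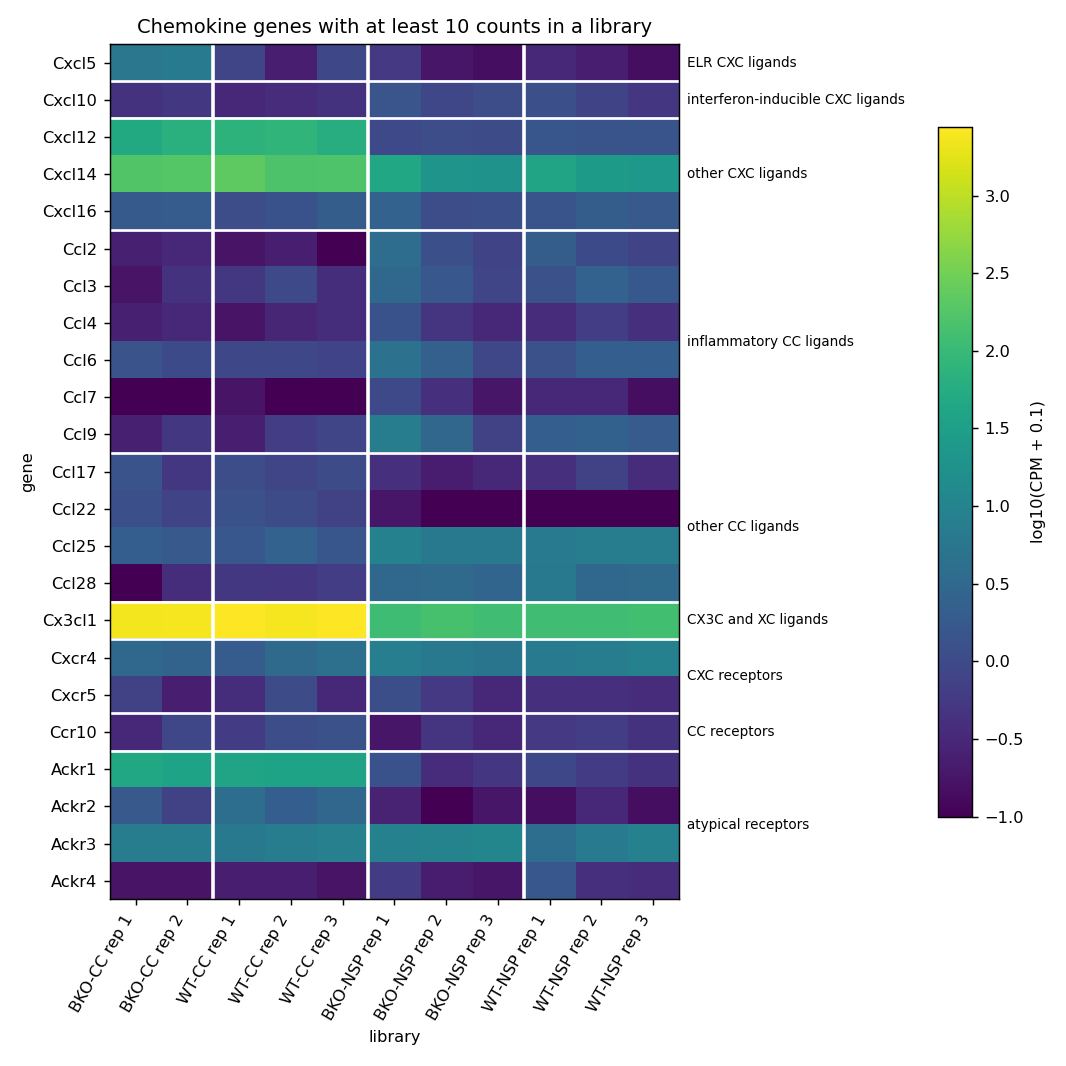
Levels of 23 of the 24 chemokine genes with at least 10 counts in a library, as log10(CPM + 0.1), in each of the 11 libraries (columns, by group) and grouped by role (rows). Cx3cl1 and Cxcl14 are bright in every library, Cxcl12 and Ackr1 in the callosum libraries, and Cxcl5 is brighter in the 2 BKO callosum libraries than in the other 9.

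Per unit of transcript length, 1 ligand dominated the family in each group. Cx3cl1, the membrane-bound ligand of CX3CR1, averaged 707 RPKM in BKO callosum and 799 RPKM in WT callosum, 81.7% and 83.5% of the summed RPKM of all 54 genes. In neurospheres it averaged 37.5 RPKM in the BKO group and 36.7 RPKM in the WT group, 49.6% and 50.1% of the sum. Cxcl14, a homeostatic CXC ligand, came second in all 4 groups, at 97.9 RPKM in BKO callosum, 99.6 RPKM in WT callosum, 15.4 RPKM in BKO neurospheres and 16.2 RPKM in WT neurospheres. Cxcr4, the receptor of CXCL12, led the signalling receptors in every group by this scale, with 1.54 RPKM in BKO callosum and 1.76 RPKM in WT callosum, and with 3.55 RPKM in BKO neurospheres and 4.31 RPKM in WT neurospheres.

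Between genotypes in callosum, 1 chemokine gene changed: Cxcl5, a neutrophil-recruiting ELR ligand, was 11-fold higher in BKO callosum. Its read count was 81 and 99 in BKO callosum, against 11, 2 and 12 in WT callosum. Both BKO libraries lay far above all 3 WT libraries, and the groups did not overlap. The level was 6.32 ± 0.865 CPM (SD, n = 2) in BKO callosum and 0.577 ± 0.385 CPM (SD, n = 3) in WT callosum. The log2 fold change was 3.46 ± 0.43 (SE) with an edgeR adjusted p = 0.00867. It was 1 of 15 chemokine genes tested, where 0.909% of all 14198 genes tested were called (adjusted p under 0.05), 0.521% higher and 0.387% lower. Within this family Cxcl5 had rank 5 by RPKM in BKO callosum (3.39 RPKM), and it stood at 0.310 RPKM in WT callosum. The call was lost without WT replicate 3 (adjusted p = 0.0622) and without BKO replicate 1 (0.0518), and in 1 model of all 11 libraries (0.0564), with log2 fold changes of 3.81, 3.59 and 3.45.

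The other ELR ligands were at or near 0 counts in callosum. Cxcl5 lies at chromosome 5, 90759298 to 90761625 (GRCm38.p6), at most 145 kb from these relatives, and the callosum libraries held 0 counts of Cxcl2, Cxcl3, Cxcl15 and of Ppbp, a platelet CXC ligand. Cxcl1 had 0 and 1 counts in BKO callosum, against 1, 0 and 0 counts in WT callosum. Of the 19 genes within 500 kb of Cxcl5, 4 could be tested and only Cxcl5 was called. The nearest tested gene was Pf4, a chemokine of platelets and macrophages, with 13 and 5 counts in BKO callosum, against 13, 12 and 9 counts in WT callosum (log2 fold change -0.28, edgeR adjusted p = 0.839). Mthfd2l, an enzyme of mitochondrial folate metabolism, had a log2 fold change of 0.02 and Ankrd17 one of -0.39. Cxcr2, the receptor of these ligands, had no count in any library.

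**Figure D2:**
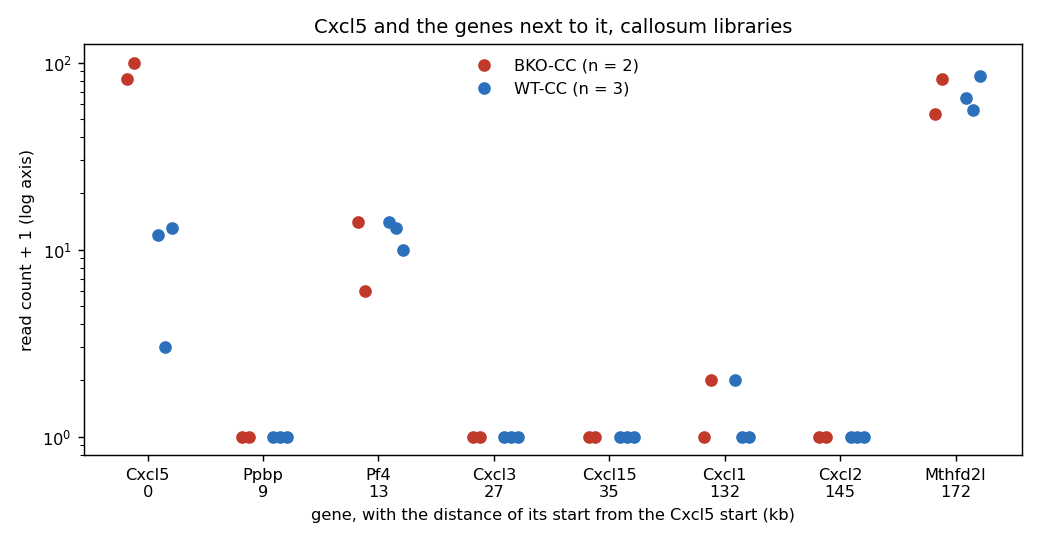
Read counts plus 1 (log axis) of Cxcl5 and the 7 counted genes that follow it on chromosome 5 in the 2 BKO callosum and 3 WT callosum libraries (points), with the distance of each start from that of Cxcl5. Cxcl5 is the gene whose points separate by genotype, while Ppbp, Cxcl3, Cxcl15 and Cxcl2 lie at 0 counts in all 5 libraries.

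Markers of blood cells stayed low beside this difference. Of 14 markers of monocytes, neutrophils and lymphocytes, 3 had no count in BKO callosum and 7 had none in WT callosum, and their sum was 2.61 and 1.26 CPM in BKO callosum, against 2.16, 1.14 and 2.15 CPM in WT callosum. Their ranges overlapped. Microglial markers summed to 734 and 787 CPM in BKO callosum, against 667, 732 and 703 CPM in WT callosum, with 0 of 14 tested markers called. Markers of pericytes and smooth muscle were at 140 and 174 CPM in BKO callosum, against 206, 234 and 182 CPM in WT callosum. Both BKO sums were below the WT sums, with 0 of 9 tested markers called (median log2 fold change -0.42). Endothelial markers overlapped, at 524 and 639 CPM in BKO callosum, against 549, 587 and 478 CPM in WT callosum. Of 15 tested, 9 had log2 fold changes above 0 (median 0.03, none called). Markers of adjoining tissues ran lower in BKO callosum, with no call. The choroid plexus sum was 15.9 and 12.5 CPM in BKO callosum, against 25.1, 50.1 and 187 CPM in WT callosum, and all 7 tested markers were lower (median log2 fold change -1.20, none called). The sum for striatal neurons was 880 and 1152 CPM in BKO callosum, against 977, 3216 and 1770 CPM in WT callosum. These sums overlapped, with WT replicates 2 and 3 high, and all 12 markers had log2 fold changes below 0 (median -1.28, none called). Of 13 astrocyte markers, 1 was called higher and 1 lower, and the median log2 fold change was 0.01. Gfap, the astrocyte filament, was the higher one (2.19 ± 0.14, edgeR adjusted p = 0.000194), and Aldh1l1, an enzyme of folate metabolism, the lower one (-0.55 ± 0.10, edgeR adjusted p = 0.0491). The part of these cell types in the Cxcl5 difference was not tested.

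The remaining 14 chemokine genes tested in callosum had no call, and their smallest adjusted p was 0.248. The median log2 fold change of the 15 tested genes was -0.01, as was that of all genes tested. Among ligands, Cx3cl1 had 32561 and 34118 counts in BKO callosum, against 39920, 36570 and 39231 counts in WT callosum. Both BKO values were the lowest of the 5, yet the difference was small, at a log2 fold change of -0.16 ± 0.11 (edgeR adjusted p = 0.521). Cxcl12 had 694 and 938 counts in BKO callosum, against 1077, 1184 and 832 counts in WT callosum, and the groups overlapped (-0.29 ± 0.17). Cxcl14 had 2447 and 2645 counts in BKO callosum, against 3160, 2358 and 2421 counts in WT callosum (-0.01 ± 0.14). Ccl6, a CC-family ligand of macrophages in the mouse, had 18 and 13 counts in BKO callosum, against 12, 12 and 10 counts in WT callosum, and Cxcl16, the transmembrane ligand of CXCR6, had 24 and 27, against 15, 18 and 28. Ccl6 was separate by 1 count (0.50 ± 0.40, edgeR adjusted p = 0.599) and Cxcl16 overlapped. Ccl25, a ligand of CCR9, had 29 and 23 counts in BKO callosum, against 22, 36 and 21 counts in WT callosum, and its log2 fold change was 0.03 ± 0.35.

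Among receptors in callosum, the atypical Ackr1 and Ackr3 had the most counts. Ackr2, also atypical, a scavenger of inflammatory CC-family ligands, had 23 and 9 counts in BKO callosum, against 57, 30 and 40 counts in WT callosum. The groups did not overlap, but at these counts the log2 fold change of -1.35 ± 0.45 missed the threshold (edgeR adjusted p = 0.248), and it ran from -2.18 to -0.82 as single libraries were left out. It was 1 of 5 genes of the 15 that passed the filter on low counts through WT callosum alone, where it was higher, so nothing is read from its separation. Ackr3 had 101 and 105 counts in BKO callosum, against 87, 110 and 124 counts in WT callosum (-0.01 ± 0.20). Ackr1, which carries chemokines across venules, had 649 and 541 counts in BKO callosum, against 554, 568 and 531 counts in WT callosum (0.16 ± 0.12). Its counts are uncertain, since 25.7% of its exon bases lie within exons of Cadm3, a neuronal adhesion gene on the same strand. Among signalling receptors, Cxcr4 had 43 and 36 counts in BKO callosum, against 27, 50 and 62 counts in WT callosum (-0.18 ± 0.35), and the groups overlapped. Groups that did not overlap, higher in Cxcl5 and Ccl6 and lower in Ackr2 and Cx3cl1, were 2 of 15 each way, where 13.7% of all genes tested were separate and higher and 18.7% separate and lower.

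**Figure D3:**
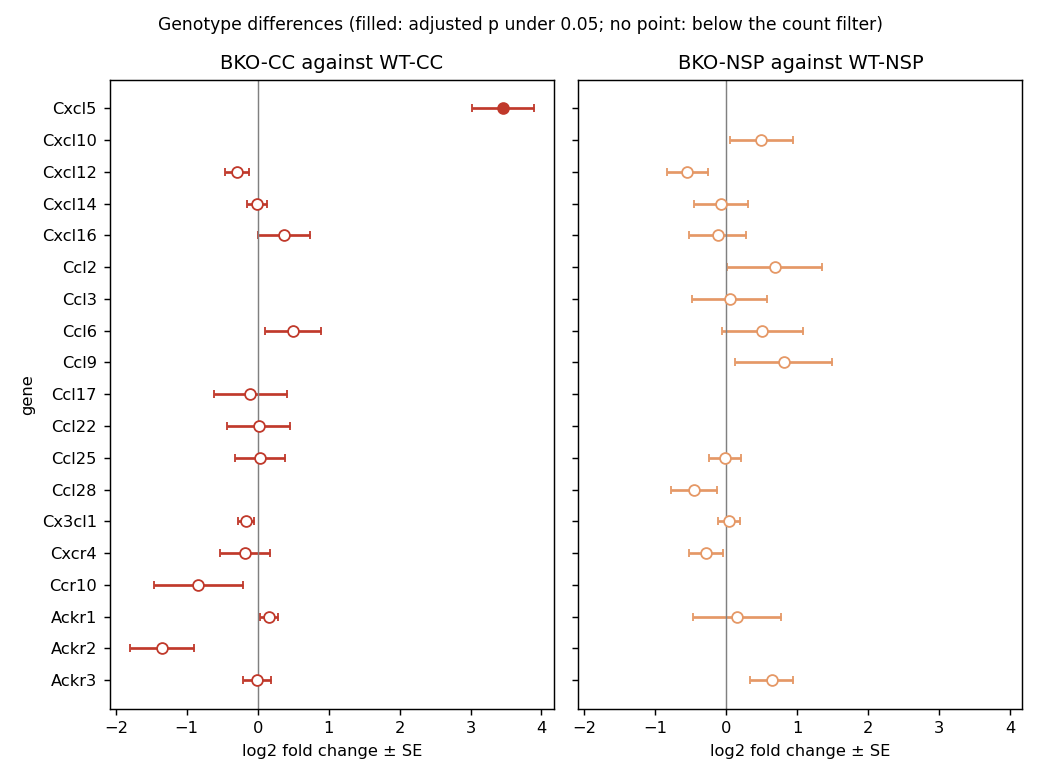
Log2 fold change with its SE for 14 of the 15 chemokine genes tested in callosum (left, BKO against WT) and 14 of the 15 in neurospheres (right, BKO against WT), with genes in the same order. Cxcl5 at 3.46 is the 1 filled point (adjusted p under 0.05), and every open point lies between -1.35 and 0.81.

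In neurospheres none of the 15 chemokine genes tested was called between genotypes, by edgeR or by DESeq2, and none had an unadjusted edgeR p under 0.05. Over all 13968 genes tested, 0.00716% were called (1 gene) and 3.02% had an unadjusted p under 0.05. The smallest adjusted p of the 15 was 0.798. Ackr3, the atypical receptor that takes up CXCL12, had 204, 224 and 250 counts in BKO neurospheres, against 87, 142 and 198 counts in WT neurospheres. All 3 BKO libraries were above the 3 WT libraries, whose spread was wide, and the log2 fold change was 0.64 ± 0.30. Its ligand Cxcl12 was separate in the other direction, with 19, 23 and 22 counts in BKO neurospheres, against 33, 29 and 30 counts in WT neurospheres (-0.55 ± 0.29). Each was 1 of 15, where 6.29% of all genes tested were separate and higher and 5.74% separate and lower. Cxcr4, the signalling receptor of the same ligand, had 179, 140 and 118 counts in BKO neurospheres, against 153, 170 and 199 counts in WT neurospheres, with overlap (-0.28 ± 0.24).

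The constitutive ligands were not called between genotypes in neurospheres. Cx3cl1 had 2589, 3172 and 2741 counts in BKO neurospheres, against 2681, 2621 and 2850 counts in WT neurospheres (0.03 ± 0.16). Cxcl14 had 1042, 457 and 422 counts in BKO neurospheres, against 870, 590 and 525 counts in WT neurospheres, with replicate 1 the highest in each genotype (-0.07 ± 0.38, and -0.63 without BKO replicate 1). Ccl25 had 200, 143 and 142 counts in BKO neurospheres, against 146, 169 and 169 counts in WT neurospheres (-0.02 ± 0.23). Ccl28, an epithelial ligand of CCR10, had 68, 75 and 63 counts in BKO neurospheres, against 136, 65 and 76 counts in WT neurospheres, and only WT replicate 1 was high (-0.45 ± 0.32). Cxcl16 had 54, 23 and 26 counts in BKO neurospheres, against 30, 43 and 37 counts in WT neurospheres, and Cxcl10, a ligand induced by interferon, had 31, 18 and 23, against 25, 16 and 9. Both overlapped between genotypes (-0.12 ± 0.40 and 0.49 ± 0.44). For Ccl25, Cxcl16 and Cxcl10, BKO replicate 1 was the highest library. Over 12 alternative fits, log2 fold changes ran from -0.21 to 0.12 for Ccl25, -0.61 to 0.10 for Cxcl16 and 0.19 to 0.91 for Cxcl10. Cxcl11, a further interferon-induced ligand, had 9 counts over the BKO neurospheres, 5 of them in replicate 1, and 0 over the WT neurospheres. It was 2.94-fold higher if the WT sum is set to a floor of 3 counts and the 9 are taken as exact. It had no test because it was below the filter.

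The inflammatory CC-family ligands varied more among neurosphere libraries than between genotypes. Ccl9, a macrophage-attracting ligand of the mouse, had 163, 66 and 15 counts in BKO neurospheres, against 46, 50 and 41 counts in WT neurospheres. Ccl6 had 99, 51 and 18, against 26, 45 and 45, and Ccl2, the main attractant of monocytes, had 87, 26 and 16, against 43, 20 and 16. Ccl3 had 70, 35 and 17 counts in BKO neurospheres, against 26, 54 and 36 counts in WT neurospheres. In all 4 genes BKO replicate 1 was the highest of the 6 libraries, and in Ccl9, Ccl6 and Ccl3 BKO replicate 3 was the lowest. The log2 fold changes were 0.81 ± 0.69 for Ccl9, 0.51 ± 0.57 for Ccl6, 0.68 ± 0.67 for Ccl2 and 0.05 ± 0.53 for Ccl3, and without BKO replicate 1 they were -0.21, -0.20, -0.36 and -0.61, with no call either way.

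The sum of all 13 inflammatory CC-family ligands was 21.0, 8.60 and 3.29 CPM in BKO neurospheres, against 7.11, 8.64 and 6.57 CPM in WT neurospheres. The microglial marker sum ran in the same order within the BKO group, at 299, 201 and 151 CPM in BKO neurospheres, against 213, 196 and 193 CPM in WT neurospheres. Of the 15 markers, 0 were without a count in BKO neurospheres and 1 in WT neurospheres. Cx3cr1, the CX3CL1 receptor of microglia, had 202, 73 and 6 counts in BKO neurospheres, against 110, 22 and 13 counts in WT neurospheres. The part of microglial content in the ligand counts was not tested. Set against the markers, neurospheres held 21.8 to 70.3 CPM of these ligands per 1000 CPM of microglial markers in the BKO group and 33.3 to 44.0 in the WT group, while callosum held 2.79 and 3.12 in the BKO group and 2.92 to 4.04 in the WT group. As counted, every neurosphere library had more ligand per microglial marker than every callosum library. This is not ligand per microglial cell. Among neurospheres the marker sum ran from 151 to 299 CPM, while Cx3cr1 ran from 0.263 to 8.94 CPM. Markers of border macrophages are not in this ratio. They summed to 34.1, 34.9 and 5.39 CPM in BKO neurospheres, against 35.2, 23.4 and 22.8 CPM in WT neurospheres. In callosum they summed to 22.3 and 30.2 CPM in the BKO group, against 30.6, 32.1 and 27.4 CPM in the WT group. The ratio was not recomputed with an offset for transcript GC content. With that offset, an alternative chosen after the data were seen, the log2 fold changes of WT callosum against WT neurospheres were 0.07 for Ccl9, 0.18 for Ccl6 and -0.70 for Ccl3, against -2.06, -1.13 and -1.70 without it.

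**Figure D4:**
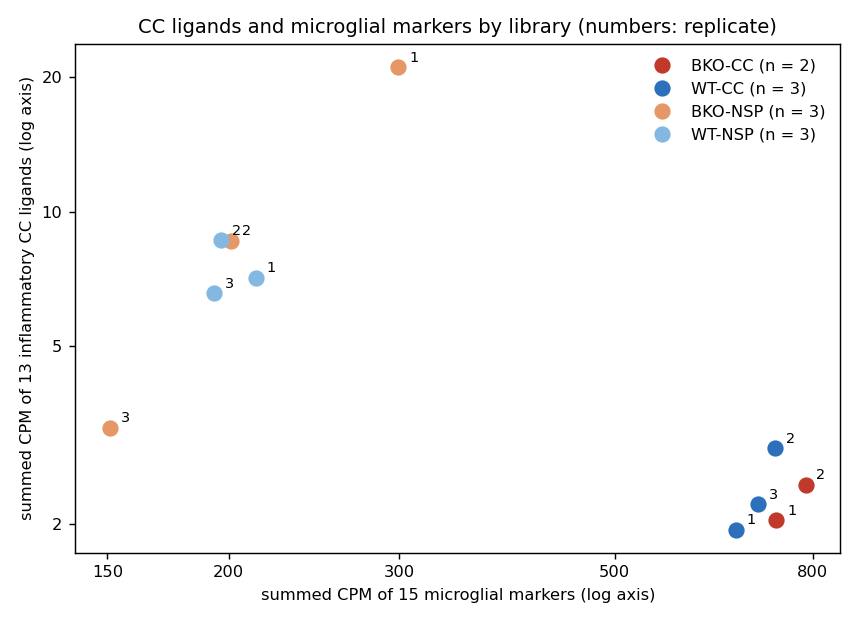
Summed CPM of the 13 inflammatory CC-family ligands against summed CPM of the 15 microglial markers, 1 point per library, both axes logarithmic, coloured by group and numbered by replicate. The callosum libraries lie at 1.95 to 2.96 CPM of ligands with 667 to 787 CPM of markers, the neurospheres at 3.29 to 21.0 CPM with 151 to 299 CPM, and BKO neurosphere replicate 1 is the highest in ligands.

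The genotype effect in callosum was compared with that in neurospheres by an interaction term over all 11 libraries, which called none of 23 chemokine genes, beside 0.0131% of all 15322 genes tested. Of the 23, 1 had an unadjusted p under 0.05, as had 4.28% of all genes, and DESeq2 called none. That gene was Cxcl5, which had 10, 2 and 1 counts in BKO neurospheres, against 5, 3 and 1 counts in WT neurospheres, too few to be tested there. Its interaction was 2.96 ± 1.18 (edgeR unadjusted p = 0.0275, adjusted p = 0.999). A difference of the Cxcl5 effect between the sources was therefore not called.

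Between the wild-type sources, 14 of 17 chemokine genes tested differed, 7 higher and 7 lower in callosum, where 85.8% of all 14733 genes tested were called, 42.0% higher and 43.8% lower. The share of chemokine genes called is close to that background. Cxcl12, with 1077, 1184 and 832 counts in WT callosum, against 33, 29 and 30 counts in WT neurospheres, was 51.7-fold higher in callosum (log2 fold change 5.69 ± 0.18, edgeR adjusted p = 5.89e-09). Cx3cl1 was 22.0-fold higher, at 2650 ± 169 CPM (SD, n = 3) in WT callosum and 122 ± 4.27 CPM (SD, n = 3) in WT neurospheres. Cxcl14 was 6.20-fold higher (2.63 ± 0.21). Ackr2, with 57, 30 and 40 counts in WT callosum, against 1, 5 and 1 counts in WT neurospheres, was 26.5-fold higher (4.73 ± 0.54). Ackr1 was 68.3-fold higher (6.09 ± 0.23), beside 6.05 ± 0.18 for the overlapping Cadm3, and it had 42.4 to 55.9 counts per 1000 counts of Cadm3 in WT callosum and 29.5 to 59.6 in WT neurospheres. Ccl17, a ligand of CCR4 (1.18 ± 0.42, edgeR adjusted p = 0.0242), and Ccr10 (1.00 ± 0.42, edgeR adjusted p = 0.0486, groups overlapping) were the others called higher. Of 12 alternatives, 6 kept the call of Ccl17 and 2 that of Ccr10. Ackr1, Ackr2 and Ccl17 passed the filter on low counts through WT callosum alone, where they were higher, so nothing is read from their calls. Ccl22, also a ligand of CCR4, had 40 counts over WT callosum and 0 over WT neurospheres. It was 20.4-fold higher if the neurosphere sum is set to a floor of 3 counts and the 40 are taken as exact.

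The genes lower in callosum were 6 ligands and 1 receptor. Ccl2 had 1, 2 and 0 counts in WT callosum, against 43, 20 and 16 counts in WT neurospheres, with a log2 fold change of -3.96 ± 0.77 (edgeR adjusted p = 0.000836). Ccl28 followed at -3.14 ± 0.40, Ccl9 at -2.06 ± 0.44, Ccl25 at -1.98 ± 0.24, Ccl3 at -1.70 ± 0.47 and Ccl6 at -1.13 ± 0.34. Cxcr4 had 27, 50 and 62 counts in WT callosum, against 153, 170 and 199 counts in WT neurospheres, and was 2.42-fold lower (-1.28 ± 0.28). Cxcr6, the receptor of CXCL16, had 0 counts over WT callosum and 15 over WT neurospheres. It was 3.26-fold lower by the same floor, with the 15 taken as exact. Ackr3 and Cxcl16 were not called, at 0.22 and -0.22. Of the 17 genes tested, 8 passed the filter through 1 of the sources alone, which favours a difference. Ccl2, Ccl28, Ccl9 and Ccl3 passed it through WT neurospheres alone, where they were higher, so nothing is read from their calls.

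These directions ran with the GC content of the transcripts. The 7 genes called higher in callosum had longest transcripts of 50.7% to 58.0% GC, and the 7 called lower 39.2% to 46.2%. Across all genes tested with a GC value, the log2 fold change was larger at higher GC content (Spearman's rho = 0.57 over 14210 genes, which share libraries and are not replicates). Its median was -2.16 over 3411 genes below 45% GC and 1.55 over 3407 genes at or above 55%. Unmapped reads and reads outside genes also separated the sources, and source and library preparation cannot be told apart. With the GC offset in the fit, 8 chemokine genes were called, beside 79.9% of all genes. Cxcl12 (5.60 ± 0.18), Ackr1 (5.88 ± 0.22), Ackr2 (4.18 ± 0.55), Cx3cl1 (3.05 ± 0.10) and Cxcl14 (1.48 ± 0.20) were still higher and Ccl2 (-2.49 ± 0.85) still lower. Ccl25 turned to 0.87 ± 0.23 (edgeR adjusted p = 0.00618), called higher in callosum. Ccl28, Ccl9, Ccl3, Ccl6, Cxcr4, Ccl17 and Ccr10 lost their calls. The genotype comparisons also ran with GC content, though more weakly (Spearman's rho = 0.31 in callosum and 0.27 in neurospheres). In callosum the median log2 fold change was -0.12 below 45% GC and 0.11 at or above 55%. Between genotypes the offset changed no call of a chemokine gene, and Cxcl5 stood at 3.57 ± 0.44 (edgeR adjusted p = 0.00897). Smaller values moved with it, such as Cx3cl1 in callosum, from -0.16 to -0.26.

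**Figure D5:**
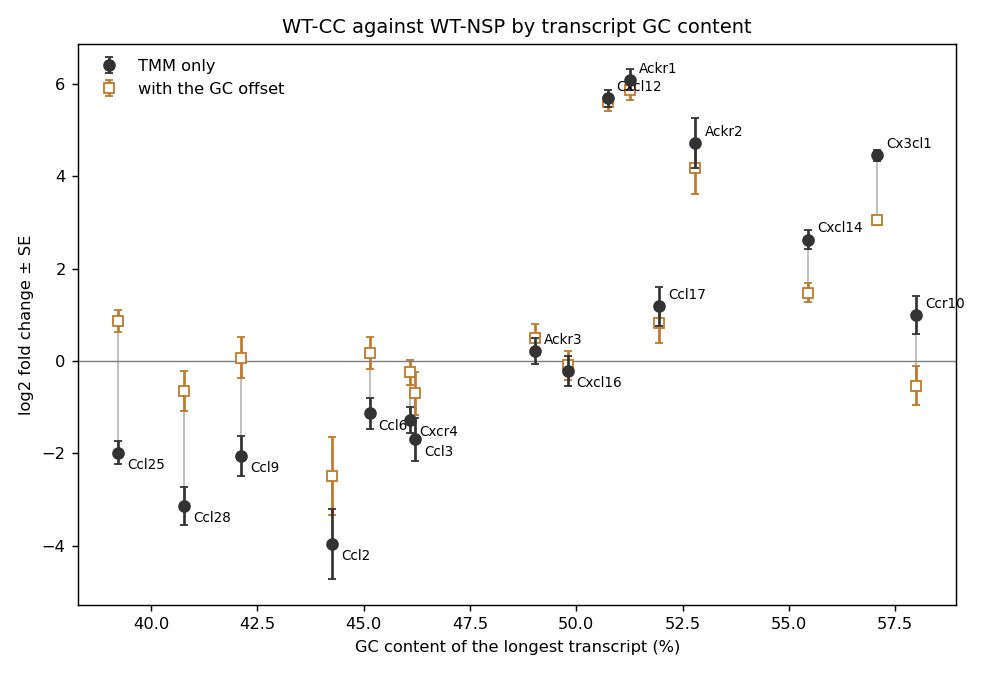
Log2 fold change of WT callosum against WT neurospheres with its SE for 16 of the 17 chemokine genes tested, by the GC content (%) of the longest transcript, from the TMM-scaled fit (filled circles) and with the GC offset (open squares), joined for each gene. The filled circles are below 0 for every gene at or under 46.2% GC and above 0 for every gene at or over 50.7%, and the offset moves the genes at the ends towards or past 0.

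Gene lists beyond the members place the family beside its pathway. Of chemokine genes outside the family symbols, such as Cx3cr1 and Ccl27a, 0 of 9 tested were called between genotypes in callosum and 0 of 5 in neurospheres (median log2 fold changes -0.05 and -0.37). Cx3cr1, the receptor of the leading ligand, had a log2 fold change of -0.06 ± 0.14 in callosum. Of the genes of chemokine receptor signalling, 0 of 21 were called in callosum and 0 of 21 in neurospheres (medians 0.07 and 0.04). Of NF-kB genes and the cytokines that induce them, 1 of 17 was called in callosum, beside 0.909% of all genes, and 0 of 19 in neurospheres (medians 0.05 and -0.03). The 1 was Bcl3, a nuclear IkB protein that acts with NF-kB p50 and p52, higher in BKO callosum by 2.77 ± 0.22 on the log2 scale (edgeR adjusted p = 0.000451). Medians of all genes were -0.01 in both. Between the wild-type sources, where 42.0% of all genes were called higher in callosum and 43.8% lower, 6 of 7 chemokine genes outside the family symbols were called higher in callosum and none lower, and the receptor signalling genes split into 15 higher and 5 lower of 22, among them Gnai3, a G protein subunit of most cells, at -5.35 ± 0.17 with transcripts of 41.7% GC. The NF-kB list split into 3 higher and 10 lower of 19.

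The untested genes were few-count ones in every group. Ccr7, a receptor that guides lymphocytes and dendritic cells, was chosen here after its values were seen, with 8 and 6 counts in BKO callosum, against 1, 3 and 2 counts in WT callosum. In the alternative fit without the filter on low counts, Ccr7 was not called between genotypes in callosum. Ccr2, the receptor of CCL2, never exceeded 1 count in a library, and Ccr1, a receptor of CCL3, CCL6 and CCL9 in the mouse, never exceeded 4. Counts of Ccl19 are uncertain, since 59.1% of its 50-base stretches recur in another gene, the only member above 10%, and reads with several mapping sites have a count of 0. For 8 members an exon is overlapped by another counted gene, and the counts ignore strand.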

How the data were processed

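The 11 libraries were sequenced on the BGISEQ-500 platform after mRNA enrichment or rRNA depletion, the labels naming no choice per library. The submitters' processing notes name STAR 2.7.1a and the build mm10; the annotation behind the counts is not stated in these sources. The authors deposited raw read counts per gene, of which those ignoring strand were used. Library sizes and tests exclude the 4 rows of unassigned reads, in which unmapped reads made up 7.77% to 22.6%, reads outside genes 8.55% to 16.6%, ambiguous reads 0.772% to 1.40%, and multimapping reads were listed at 0. Replicate pairs differed beyond sampling noise (chi-square per degree of freedom 6.85 to 132), and each library was treated as 1 replicate. That spread could be technical and does not show that replicates are separate mice.

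Tests were edgeR 4.0.16 in R 4.3.3 (quasi-likelihood, robust, TMM, filterByExpr, two-sided, Benjamini-Hochberg over all genes), called at an adjusted p under 0.05. Each genotype comparison and the wild-type source comparison were fitted on their own groups, and the interaction on all 11 libraries. An SE is the log2 fold change divided by the square root of F. CPM used TMM over all 11 libraries, and RPKM is that CPM per kilobase of the longest GENCODE M21 transcript. The scripts were tested on simulated data. Positions and promoters are from RefSeq, GRCm38.p6. Alternatives were RLE scaling, no filter, DESeq2 1.42.0, a replicate block, 1 model of all libraries, leaving out each library and, added after the data were seen, an edgeR offset from a lowess curve of each library's log2 deviation on transcript GC content (95.8% of symbols had a value). The rule for members named with values was a group mean of at least 1 CPM, a call between genotypes, or a place among the 5 largest called differences each way between the sources. Cxcl5's ELR relatives, Cxcl11, Ccl17, Ccl19, Ccl22, Ccr1, Ccr2, Ccr7, Ccr10 and Cxcr6 fall outside it and were chosen after their values were seen; 1 member is not reported here and enters the totals only. The members and lists were chosen with earlier results of these data known.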

Additional observations from a re-analysis of the deposited data

How the results depend on the processing

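The 55 gene-level results of the reported members that meet the naming rule were refitted 713 times. Of these refits, 629 kept their direction and side of the threshold and 74 changed sign with no call either way. A further 7 lost a call, and 3 changed the sign of a called result. Those 3 came with the GC offset: Ccl25 was called the other way, while Ccl6 and Ccl9 were no longer called. Ccl17 and Ccr10, outside the rule, kept their calls in 6 and 2 of 12 refits. In callosum 1 chemokine gene was called between genotypes, 0 in 1 model of all 11 libraries, and 0 to 1 when single libraries were left out. In neurospheres and in the interaction the count was 0 under every alternative run. Between the wild-type sources it was 14, with 13 to 15 when single libraries were left out, 19 without the filter, 17 with DESeq2, 16 in 1 model of all libraries and 8 with the GC offset. With that offset Ccl6 stood at 0.18, Ccl9 at 0.072 and Ccl25 at 0.87 on the log2 scale, against -1.13, -2.06 and -1.98 without it, because the offset removes what varies with GC. Counts over all genes moved more. In callosum 129 became 224 without a filter, 321 with DESeq2, 33 in 1 model of all libraries and 27 to 73 without WT replicate 2, WT replicate 3 or BKO replicate 1. In neurospheres 1 became 5, 33 and 19 under the first 3 of these, and 5 without BKO replicate 1. In the interaction 2 became 37 with DESeq2, 5 with the GC offset and 1 to 10 as single libraries were left out. The cause was not tested. Whether replicate numbers pair the libraries was not established. Between neurosphere genotypes, same-number correlations of deviations were 0.28, -0.01 and 0.33, and different-number ones ran from -0.41 to 0.31. In the other comparisons same-number values were -0.01 to 0.08. With a replicate block Cxcl5 stood at 3.84 (edgeR adjusted p = 0.0292), 13 chemokine genes were called between sources, and 2 genes in all were called in neurospheres. Depth limits most the members at under 10 counts in every library, which the filter left untested; without it Ccl19 and Cxcr6, both of that kind, were called between the wild-type sources (edgeR adjusted p = 0.00288 and 0.00797).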
